A study of Homo sapiens with 6 samples.

Results

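Cytosolic ribosomal protein genes encode the proteins of the large and small subunits of the ribosome that translates the messenger RNAs of the nucleus. They were taken from the count table as rows with an Ensembl identifier, at least 1 Gene Ontology term and a symbol of the RPL or RPS series, with RPLP0, RPLP1, RPLP2, RPSA and FAU. This gave 81 genes among 60780 rows, 48 of the large subunit and 33 of the small subunit. RPL10L fitted the symbol pattern, carried no term and had 0 counts in all 6 libraries, so it was not a member.

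The established line LX-2, derived from human hepatic stellate cells, was kept for 24 h in conditioned medium of the colorectal carcinoma line HCT116 before its RNA was sequenced. In Vector-CM (n = 3) the tumour cells were HCT116Vector, with the empty vector. In FGFBP1-CM (n = 3) they were HCT116FGFBP1, given by lentivirus the gene FGFBP1, whose secreted product binds and carries fibroblast growth factors. The LX-2 cells themselves were not modified, all samples were of 1 cell line and 1 time point, and no culture without tumour cell medium was analysed here. Nothing in the labels says that the 3 samples of a group came from separate cultures, so p-values measure the spread between these samples, which may be technical.

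The libraries held 14003780 to 18508113 counts each. All 12 markers of stellate cells and myofibroblasts had a mean of at least 1 CPM (counts relative to the scaled library size), and their summed level was 3579 to 3850 CPM in Vector-CM and 2772 to 3313 CPM in FGFBP1-CM. Their median log2 fold change was -0.29 with 11 of 12 below 0, and TIMP1, an inhibitor of matrix proteases, fell by 0.37 ± 0.06 on the log2 scale with an edgeR adjusted p of 0.0465. Of 12 markers of colorectal epithelium, 3 reached 1 CPM and CEACAM5 was at 0 in every library, with a summed level of 216.7 to 241.2 CPM against 208.1 to 224.1 CPM. Hepatocyte markers (8 genes, 4 tested) summed to 38.1 to 39.3 CPM against 17.7 to 27.3 CPM, mostly from SERPINA1. Of these APOB fell by 3.59 ± 0.32 and ALB by 2.44 ± 0.31 on the log2 scale, with edgeR adjusted p of 0.000339 and 0.00858, from means of 3.38 and 3.43 CPM in Vector-CM. Leukocyte markers (6 genes) summed to 3.84 to 4.31 CPM against 3.37 to 5.85 CPM. The part of these differences in the results was not tested. FGFBP1-CM replicate 1 stood furthest from its group, with a chi-square per degree of freedom of 6.89 and 7.44 against replicates 3 and 2, where the other pairs within a group had 2.26 to 4.24. In bulk RNA, fewer cells of a type and less RNA per cell cannot be told apart.

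The small subunit reads the codons and the large subunit joins the amino acids, and each cell makes their proteins in near equal numbers. Control of this set lies largely in translation: most ribosomal protein messages start with a C followed by a run of C and T (U in the RNA), the terminal oligopyrimidine or TOP tract, through which LARP1 and the kinase mTOR switch their translation with nutrients and growth factors. Such a switch acts on translation, and only the amount of RNA was measured here. The rest of the machinery, from the assembly factors of the nucleolus to the initiation factors, is controlled to a greater extent through transcription, with MYC as the best known activator.

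The tract was looked for at the start sites that RefSeq annotates on GRCh38.p14, as a C at the start followed by 4 bases that were each C or T. A start sequence was available for 64 of the 81 genes, and 47 of these 64 (73.4%) had the tract at an annotated start, against 1404 of 27305 genes (5.14%) in the whole promoter table. The share was 28 of 38 (73.7%) for the large subunit and 19 of 26 (73.1%) for the small subunit. The same pattern read on the other strand was present for 1.56% of the ribosomal protein genes and 4.34% of all genes. A match at an annotated start is a description of these letters and not a measured start of the messages in LX-2 cells.

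The starts of the 5 genes with the highest level, given next, all had the tract. Each line holds 10 bases before the start and 20 bases from it, 5′ to 3′ on the strand of the gene, with the C of the start and the unbroken run of C and T after it in capitals.
RPS18, chr6:33272065-33272094, plus strand: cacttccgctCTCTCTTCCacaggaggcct
RPS12, chr6:132814559-132814588, plus strand: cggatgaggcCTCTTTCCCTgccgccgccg
RPL41, chr12:56116623-56116652, plus strand: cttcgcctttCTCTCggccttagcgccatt
RPLP0, chr12:120201092-120201121, minus strand: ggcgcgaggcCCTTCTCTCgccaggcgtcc
RPL7A, chr9:133348208-133348237, plus strand: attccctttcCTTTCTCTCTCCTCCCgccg
The run was 5 bases long in RPL41 and 16 bases long in RPL7A.

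The starts of genes at the ends of the order of fold changes follow, to show the tract at both ends. RPS9, RPL12 and RPL3 were among the lowest and RPL36A, RPL6 and RPS26 among the highest.
RPS9, chr19:54200848-54200877, plus strand: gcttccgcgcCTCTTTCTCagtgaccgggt
RPL12, chr9:127451387-127451416, minus strand: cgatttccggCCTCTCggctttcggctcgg
RPL3, chr22:39319604-39319633, minus strand: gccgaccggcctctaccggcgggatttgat
RPL36A, chrX:101391001-101391030, plus strand: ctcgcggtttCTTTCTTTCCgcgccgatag
RPL6, chr12:112409266-112409295, minus strand: gacggcgcgtgcactgtgttcctggtcctg
RPS26, chr12:56041908-56041937, plus strand: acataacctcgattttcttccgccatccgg
RPL3, RPL6 and RPS26 have no capitals because the pattern was not found at their annotated starts, and RPL36A, with the highest fold change of all 80 tested, did.

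Levels between genes were compared per length, as FPKM, which relates fragments to the length of the gene and the size of the library. The median of the large subunit genes was 123.3 FPKM, that of the small subunit genes 100.9 FPKM and that of all 16582 genes tested 3.94 FPKM. Of the 81 genes, 43 had a mean above 100 FPKM, 7 had a mean below 10 FPKM and 20 were among the top 100 genes of the table. The highest were RPS18, a protein of the head of the small subunit, at 402.3 ± 16.3 FPKM (SD, n = 6 libraries) and RPS12, also of the small subunit, at 366.2 ± 17.9. Next came RPL41, a very short basic peptide, at 356.2 ± 11.2, RPLP0, the anchor of the stalk that recruits elongation factors, at 350.0 ± 14.4, and RPL7A, a large subunit protein that binds ribosomal RNA, at 305.6 ± 11.7. RPS12, RPL41 and RPLP0 differed from each other by less than the SD of RPS12.

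At the low end were RPS10 at 1.47 ± 0.21 FPKM, RPL36A at 1.65 ± 0.18, RPL26 at 4.27 ± 0.52 and RPL17 at 6.90 ± 0.58. These proteins are standard parts of the ribosome, RPL17 and RPL26 lining the exit of the peptide tunnel, yet their genes were counted at a level far below the others. For RPS10, annotated pseudogenes of the same symbol held 226% of the gene's own counts and 39.4% of its exon length overlapped other genes, mainly RPS10-NUDT3. Pseudogenes of RPL26 held 76.4% of its counts and those of RPL36A 33.7%, and 35.3% of RPL17 exon length overlapped other genes, mainly RPL17-C18orf32. How much of the low levels these features account for was not tested.

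Pseudogenes of the ribosomal protein genes were a wider limit of the counting. Rows with a member's symbol followed by P and a number existed for 78 of the 81 genes, 1285 rows in all, and 310 of these rows, for 67 genes, had at least 10 counts. Their counts came to 4.10% of those of the genes themselves, and reads could have been split between near-identical copies. For 21 genes at least 10% of the exon length overlapped another annotated gene, up to 55.5% for RPL10, mainly with DNASE1L1. The length behind FPKM was also long for these genes, with a median of 3188 bases where the median annotated transcript had 671 bases, and the ratio between the lengths ran from 1.01 to 16.7. The order of levels depended on that length: per median transcript length, RPLP0, RPS3, RPL10, RPL3 and RPL4 were highest and RPS12 moved from rank 2 to rank 54.

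**Figure D1:**
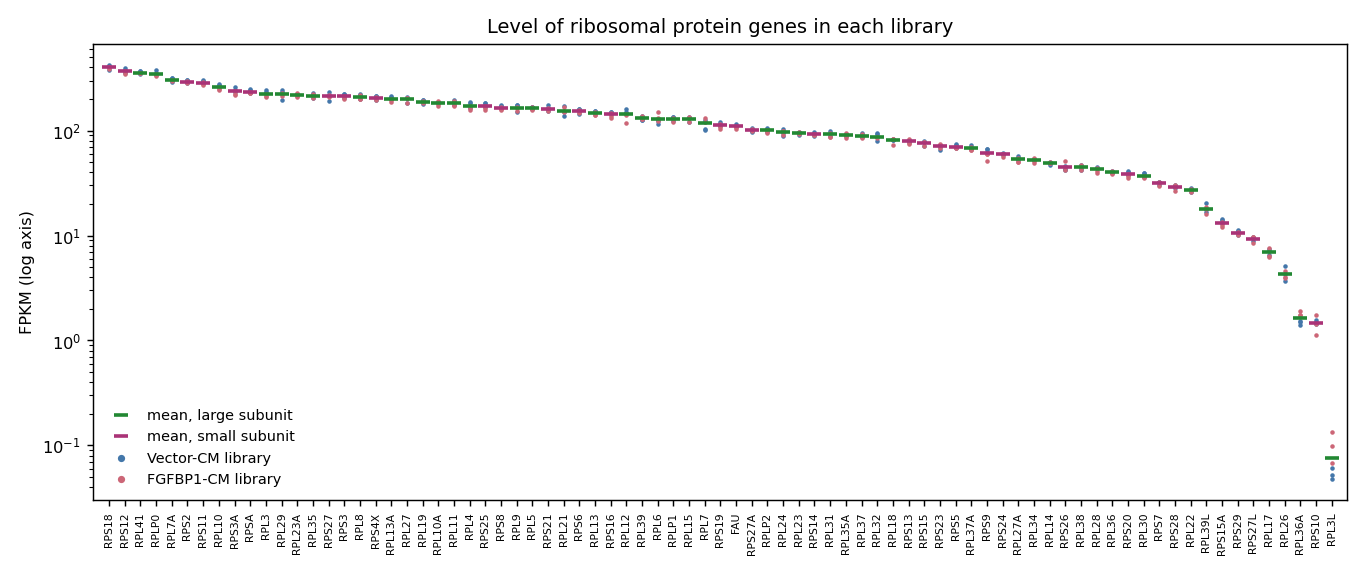
FPKM (log axis) of 79 of the 81 ribosomal protein genes in each of the 6 libraries, with points for libraries coloured by group and bars for the mean of all 6, green for the large and purple for the small subunit. The levels fall from 402.3 FPKM for RPS18 to 1.47 FPKM for RPS10, with RPL3L apart at 0.0766 FPKM, and the libraries lie close together at nearly every gene.

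The main comparison asked whether the medium of FGFBP1-overexpressing tumour cells changed these genes in LX-2 cells. None of the 80 genes tested passed an adjusted p of 0.05 in edgeR's quasi-likelihood test, where 0.121% of all 16582 genes tested did, 9 higher (0.0543%) and 11 lower (0.0663%). The lowest adjusted p among them was 0.103, for RPS9. By DESeq2 0 of the 80 passed as well, with a lowest adjusted p of 0.0549, against 4.72% of the genes to which DESeq2 gave an adjusted p. At an unadjusted p under 0.05 edgeR gave 6 genes lower in FGFBP1-CM (7.50% of 80, against 10.6% of all genes tested) and 0 higher (against 11.3%), and DESeq2 gave 7 lower (against 7.97% of all genes tested) and 0 higher (against 8.30%). With at least 1 count as the only filter, 1 gene passed in edgeR, RPS9, in a fit that called 3.65% of 37829 genes.

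The estimates were small and lay mostly on one side of 0. Of the 80 log2 fold changes (FGFBP1-CM over Vector-CM) 74 were below 0, or 92.5%, where 49.1% of all genes tested were below 0. Their median was -0.08, against 0.00 for all genes tested, and their range was -0.24 to 0.24. The median was -0.07 for the 47 large subunit genes, with 44 below 0, and -0.08 for the 33 small subunit genes, with 30 below 0. The values between the quartiles lay from -0.10 to -0.04 in the large and from -0.11 to -0.05 in the small subunit, so the subunits overlapped almost completely. The genes share 6 libraries and are not independent, and with library size as the only scaling the median was -0.04 with 66 genes below 0, while the median of all genes moved to 0.04.

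The median SE over the 80 genes was 0.07 on the log2 scale, against 0.11 for all genes tested. It measures the spread between these samples, which may be technical. Of the 74 genes with a mean of at least 50 CPM, 71 had a 95% interval that lay within 0.32 of 0 on the log2 scale in either direction, and the exceptions were RPL12, RPL7 and RPS9. The share of all genes at that level with such an interval is not given here. The interval lay wholly below 0 for 6 genes and wholly above 0 for none of the 80.

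**Figure D2:**
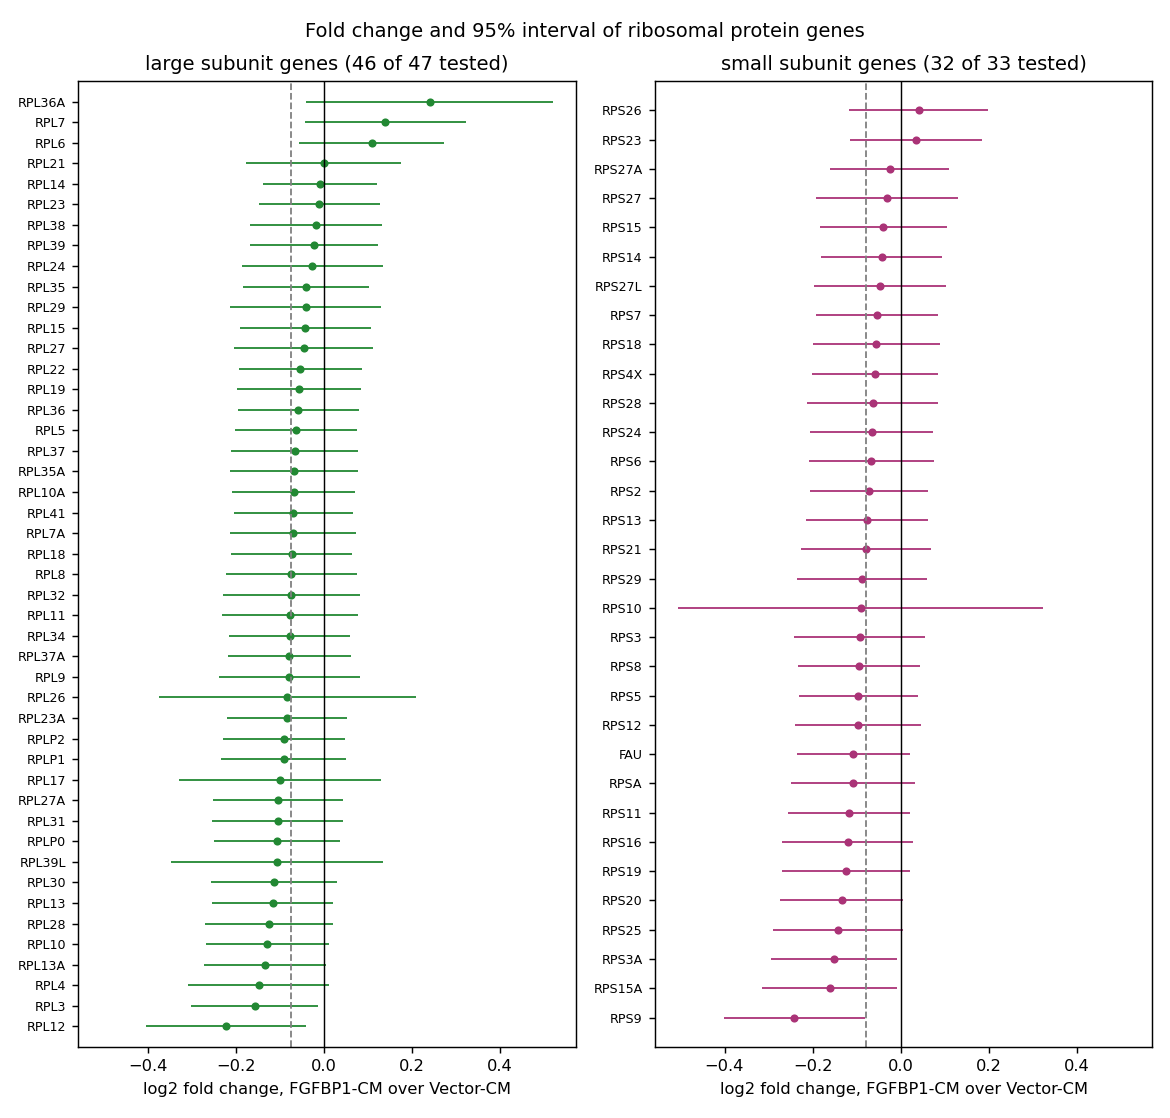
Log2 fold change with its 95% interval from edgeR, in the order of the estimate, for 46 of 47 tested genes of the large (left) and 32 of 33 of the small (right) subunit, with a solid line at 0 and a dashed line at the median over all tested genes of each subunit. Nearly all points sit just left of 0, around medians of -0.07 and -0.08, and the few intervals that leave out 0 are all on the lower side.

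RPS9 (ENSG00000170889, chr19:54200742-54249003 in GENCODE 29), a small subunit protein that binds ribosomal RNA early in assembly, had the lowest fold change. Its level was 273.7, 289.2 and 297.1 CPM in the Vector-CM libraries, in the order of replicates 1 to 3, and 216.8, 255.9 and 254.9 CPM in those of FGFBP1-CM. The groups did not overlap, and FGFBP1-CM replicate 1 was the lowest of all. The log2 fold change was -0.24 ± 0.07 (SE) with an edgeR adjusted p of 0.103.

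RPL12 (ENSG00000197958, chr9:127447674-127451405) lies at the base of the stalk of the large subunit, where elongation factors bind. It was counted at 362.9, 398.0 and 378.8 CPM in Vector-CM and at 279.7, 354.7 and 342.1 CPM in FGFBP1-CM. The groups did not overlap, and again the first FGFBP1-CM replicate lay far below the other two, so that the SD was 40.1 CPM in FGFBP1-CM and 17.6 CPM in Vector-CM. Its log2 fold change was -0.22 ± 0.08 with an edgeR adjusted p of 0.155.

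RPL3 (ENSG00000100316, chr22:39312882-39320389), which reaches the centre where peptide bonds form, had 1083, 1163 and 1124 CPM in Vector-CM. In FGFBP1-CM it had 951, 1013 and 1059 CPM, all below the Vector-CM values, for a log2 fold change of -0.16 ± 0.07 and an edgeR adjusted p of 0.194. RPS15A of the small subunit (ENSG00000134419) had 89.0, 97.1 and 96.1 CPM against 77.8, 85.1 and 89.5 CPM. Here the groups overlapped, since the third FGFBP1-CM value was above the first of Vector-CM, and the log2 fold change was -0.16 ± 0.07 with an edgeR adjusted p of 0.206.

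At the other end, RPL36A (ENSG00000241343, chrX:101390824-101396154), a protein near the site where tRNA leaves the ribosome, had 6.04, 6.23 and 5.72 CPM in Vector-CM and 6.80, 7.54 and 6.93 CPM in FGFBP1-CM. It was the single gene of the 80 with every FGFBP1-CM value above every Vector-CM value, where 13.0% of all genes tested did so. Its log2 fold change was 0.24 ± 0.13 with an edgeR adjusted p of 0.301, on 85 to 129 counts a library. Without overlap on the lower side were 8 genes, 5 of the large subunit (RPL12, RPL3, RPL13A and RPL10 among them) and 3 of the small subunit (RPS9, RPS3A and FAU). This was 10.0% of the 80 genes, against 13.0% of all genes tested.

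RPL7, RPL6 and RPS26 at the high end overlapped between the groups. RPL7, a large subunit protein that binds ribosomal RNA, had 278.2, 282.6 and 348.2 CPM against 318.7, 330.8 and 352.2 CPM. Vector-CM replicate 3 was as high as the FGFBP1-CM libraries, its pseudogenes held 31.6% of its counts, and the log2 fold change was 0.14 ± 0.08 with an edgeR adjusted p of 0.355. RPL6 had 516.1, 559.7 and 589.6 CPM against 652.5, 552.9 and 589.7 CPM, so that the FGFBP1-CM mean rested on replicate 1, with 0.11 ± 0.08 on the log2 scale and an edgeR adjusted p of 0.431. RPS26, which lines the exit channel of the messenger RNA, had 87.0, 90.5 and 96.5 CPM against 102.1, 87.5 and 92.1 CPM. Replicate 1 of FGFBP1-CM was the highest of the 6 libraries, and the log2 fold change was 0.04 ± 0.07 with it and -0.02 without it.

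The genes with the highest levels lay in the same narrow range. RPLP0 had 1388, 1515 and 1456 CPM in Vector-CM and 1298, 1358 and 1391 CPM in FGFBP1-CM, a log2 fold change of -0.11 ± 0.07 with an edgeR adjusted p of 0.367. RPS18 had 698.4, 768.5 and 796.9 CPM against 722.2, 718.0 and 738.6 CPM, and Vector-CM replicate 1 was the lowest of all 6. The log2 fold changes of RPS18, RPL7A, RPL41 and RPS12 were -0.06, -0.07, -0.07 and -0.10.

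Members with known roles outside protein synthesis had values like the rest. RPL5 and RPL11, which together can bind MDM2 and so stabilise p53 when assembly of ribosomes is disturbed, had log2 fold changes of -0.06 ± 0.06 and -0.08 ± 0.07. RPL13A, which also takes part in a complex that silences inflammatory messages, had 654.8, 693.5 and 695.7 CPM against 588.4, 632.7 and 641.6 CPM, with a log2 fold change of -0.13 ± 0.06 and an edgeR adjusted p of 0.245. RPS6, the substrate of the S6 kinases below mTOR, had -0.07 ± 0.07, and RPSA, which is also known as a laminin receptor, -0.11 ± 0.07. RPS27A and FAU, made as fusions to ubiquitin and to a ubiquitin-like protein, had -0.03 ± 0.06 and -0.11 ± 0.06.

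Paralogs that are made mainly in particular tissues were compared with the copy each resembles. RPL3L, the form of heart and skeletal muscle, was counted at 3, 2 and 2 reads in Vector-CM and 5, 3 and 6 reads in FGFBP1-CM, near or below the 3 counts taken as the limit of detection. It was the 1 member below the filter on low counts, and RPL3 was counted 16046 to 19371 times a library. RPL39L, known from testis and tumours, had 17.3, 18.9 and 21.7 CPM against 16.02, 19.5 and 18.3 CPM, overlapping groups with a log2 fold change of -0.11 ± 0.11. Per length it stood at 17.96 ± 1.64 FPKM where RPL39 stood at 130.8 ± 5.59 FPKM (SD, n = 6). Per kilobase of median transcript the means were 24.8 and 687.3 CPM, here relative to the unscaled library total. The log2 fold change of RPL39 was -0.02 ± 0.07.

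RPS27L, a copy of RPS27 that p53 activates, had 86.0, 79.7 and 86.4 CPM against 84.0, 75.6 and 84.6 CPM. The groups overlapped, and its log2 fold change was -0.05 ± 0.07 beside -0.03 ± 0.07 for RPS27. Per length, RPS27 stood at 213.8 ± 13.3 FPKM and RPS27L at 9.34 ± 0.50 FPKM. The length behind FPKM was 2.07 times the median transcript length for RPS27 and 10.9 times for RPS27L. Per kilobase of median transcript the means were 443.2 and 102.0 CPM, again relative to the unscaled library total. The starts of this pair are shown because they differ in the tract, with 7 pyrimidines in RPS27 and no match in RPS27L.
RPS27, chr1:153990752-153990781, plus strand: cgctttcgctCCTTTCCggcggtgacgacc
RPS27L, chr15:63157458-63157487, minus strand: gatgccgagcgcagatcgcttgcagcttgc

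The set as a whole took 3.07%, 3.30% and 3.31% of all counts in the Vector-CM libraries, again in the order of replicates, and 3.09%, 3.05% and 3.22% in those of FGFBP1-CM. The means were 3.23% ± 0.14 and 3.12% ± 0.09 (SD, n = 3), and the groups overlapped because Vector-CM replicate 1 lay below 2 of the FGFBP1-CM libraries. The large subunit took 2.10% and the small subunit 1.13% of counts in Vector-CM, against 2.03% and 1.09% in FGFBP1-CM. The difference of 0.105 percentage points between the means was smaller than the SD of the Vector-CM libraries and larger than that of the FGFBP1-CM libraries.

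**Figure D3:**
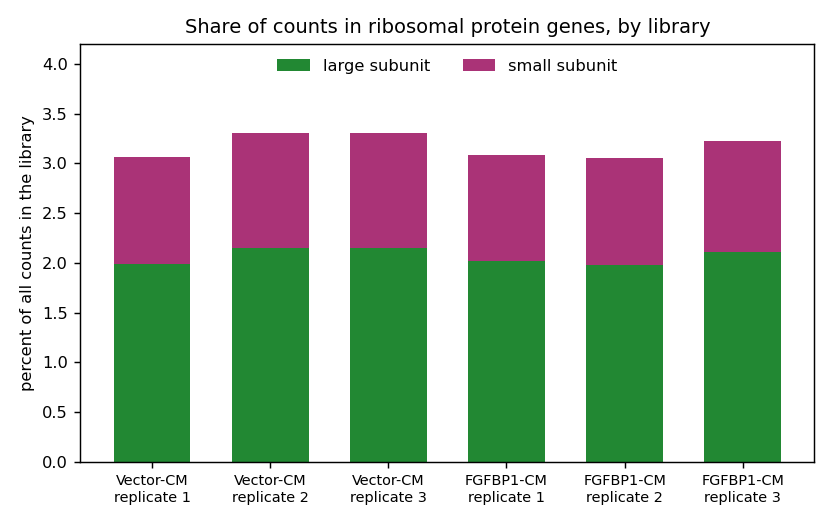
Share of all counts of a library that fell in ribosomal protein genes, as bars stacked from the large (green) and small (purple) subunit, for the 6 libraries. The bars range from 3.05% in FGFBP1-CM replicate 2 to 3.31% in Vector-CM replicate 3, and Vector-CM replicate 1 is as low as the FGFBP1-CM bars.

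Summed FPKM of the large over the small subunit was 1.43, 1.44 and 1.43 in Vector-CM and 1.44, 1.44 and 1.46 in FGFBP1-CM. The means were 1.435 ± 0.005 and 1.447 ± 0.013 (SD, n = 3), a difference below the SD of FGFBP1-CM and above that of Vector-CM, while the groups overlapped. The value of this ratio carries the gene lengths used for FPKM: per median transcript length it was 1.839 and 1.851. The ratio of the median gene of each subunit varied more, with 1.11, 1.16 and 1.21 in Vector-CM and 1.18, 1.22 and 1.27 in FGFBP1-CM. Its means were 1.162 ± 0.050 and 1.222 ± 0.049, so that the difference of 0.0601 was larger than either SD while the groups overlapped.

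Within a group the genes shifted together from library to library. In Vector-CM, replicate 1 was the lowest of the 3 libraries for 75 of the 80 genes (93.8%), where it was the lowest for 34.9% of all genes tested. In FGFBP1-CM, replicate 3 was the highest for 65 genes (81.3%, against 30.6% of all genes tested) and the lowest for 0. The median level of the 80 genes relative to their mean over the 6 libraries was -0.04, 0.07 and 0.09 on the log2 scale in Vector-CM and -0.07, -0.06 and 0.02 in FGFBP1-CM. The difference between the group means, -0.07, was about as large as the pooled SD between libraries of a group, 0.06. Large and small subunit moved in the same pattern, with -0.05, 0.06, 0.09, -0.07, -0.06 and 0.03 for the large and -0.04, 0.07, 0.09, -0.06, -0.06 and 0.00 for the small subunit. The number of genes at an unadjusted p under 0.05 depended on these libraries: without Vector-CM replicate 1 it went from 6 to 17, all lower (21.2%, against 7.69% of all genes tested in that fit), and without FGFBP1-CM replicate 3 to 11, all lower (13.8%, against 10.6%). Without FGFBP1-CM replicate 1 or 2 or Vector-CM replicate 2 or 3 it went to 2 or 3, of which 2 were lower in each fit (2.50%, against 6.98% to 11.9%).

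**Figure D4:**
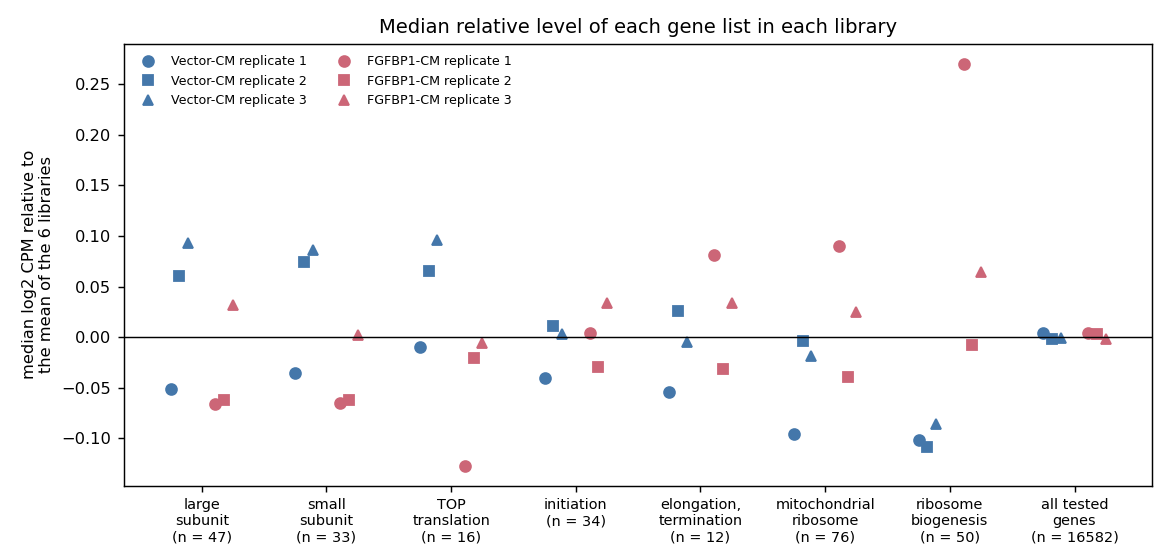
Median log2 CPM of each gene list in each library relative to the mean of the 6 libraries, with blue for Vector-CM and red for FGFBP1-CM and a marker shape for each replicate. For both subunits Vector-CM replicate 1 lies with FGFBP1-CM replicates 1 and 2, while for ribosome biogenesis all Vector-CM libraries lie below all FGFBP1-CM libraries and FGFBP1-CM replicate 1 stands highest at 0.27.

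Other genes of the translation machinery were set beside the ribosomal proteins as lists of known members. By edgeR 0 genes of these lists passed an adjusted p of 0.05, so they are described by medians and by counts at an unadjusted p under 0.05, for which the shares of all genes tested were 11.3% higher and 10.6% lower. Messages outside the ribosome that are known to carry a TOP tract (17 genes, 16 tested) had a median log2 fold change of -0.09, with 14 below 0, 4 lower and 1 higher at that p. By DESeq2, where 4.72% of the genes with an adjusted p passed in either direction, 1 gene passed after adjustment, VIM. Its intermediate filament vimentin is also among the stellate markers, and it had 2468, 2683 and 2626 CPM in Vector-CM and 1964, 2368 and 2156 CPM in FGFBP1-CM, with a log2 fold change of -0.26 ± 0.08 and adjusted p of 0.0967 by edgeR and 0.0260 by DESeq2. The gene with the highest value of this list was EIF3A, a scaffold of initiation factor 3, with 0.18 ± 0.07 and an edgeR adjusted p of 0.157. EEF1G, a subunit of elongation factor 1, was listed at 0 in every library and could not be assessed.

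Initiation factors (34 genes, some also in the list before) had a median of 0.01, with 7 higher and 4 lower at an unadjusted p under 0.05. By DESeq2, 2 were higher after adjustment (lowest adjusted p of 0.0341), where 2.55% of the genes with an adjusted p by DESeq2 were. EIF5, which triggers GTP hydrolysis at the start codon, had 69.6, 74.5 and 72.7 CPM in Vector-CM and 176.0, 96.9 and 94.7 CPM in FGFBP1-CM. The groups did not overlap and replicate 1 was far above the rest. Its log2 fold change was 0.77 ± 0.18 with an edgeR adjusted p of 0.0650, and 0.41 ± 0.07 with an edgeR adjusted p of 0.0139 when that library was left out. EIF4A1, the helicase of the cap complex, had 14.5, 10.0 and 13.2 CPM against 7.70, 8.80 and 10.7 CPM, overlapping, with -0.48 ± 0.15 and an edgeR adjusted p of 0.111. It was counted 138 to 259 times a library, at a mean of 2.07 FPKM where EIF4A2 stood at 85.7 FPKM. Exon overlap with other genes was not examined for this list. Elongation and termination factors (12 of 13 tested, 4 of these in the TOP list too) had a median of 0.04, with ABCE1, which splits ribosomes after termination, highest at 0.30 ± 0.08 (edgeR adjusted p of 0.0889). By DESeq2, 2 genes of this list were higher after adjustment (against the same 2.55%), with a lowest adjusted p of 0.0442, that of ABCE1.

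EEF2, which moves the ribosome along the message, was the lowest of the elongation factors. It had 1277, 1320 and 1300 CPM in Vector-CM and 1068, 1170 and 1193 CPM in FGFBP1-CM, with no overlap, a log2 fold change of -0.18 ± 0.07 and an edgeR adjusted p of 0.142. Its start is shown as a TOP gene outside the ribosome.
EEF2, chr19:3985444-3985473, minus strand: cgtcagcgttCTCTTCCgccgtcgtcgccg

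Ribosome biogenesis factors, which transcribe and process ribosomal RNA and assemble the subunits, lay on the other side. Of 50 genes, all tested, 46 had a log2 fold change above 0, where 50.9% of all genes tested did, and their median was 0.19. At an unadjusted p under 0.05, 28 were higher and 0 lower. By edgeR 0 passed after adjustment, with a lowest adjusted p of 0.0561, and by DESeq2 8 were higher, where 2.55% of the genes with an adjusted p by DESeq2 were. The edgeR count was 12 without FGFBP1-CM replicate 2 and 4 without FGFBP1-CM replicate 3. It was 2 without FGFBP1-CM replicate 1 and 0 without any one Vector-CM library. How many of all genes passed in those fits is not given here. With at least 1 count as the only filter the count was 18, in a fit that called 3.65% of 37829 genes. Without overlap on the higher side were 24 genes, against 13.0% of all genes tested. Without FGFBP1-CM replicate 1 the median was 0.11, and without any one of the other libraries 0.195 to 0.255. The count higher at an unadjusted p under 0.05 was 17 without FGFBP1-CM replicate 1 (against 7.80% of all genes tested in that fit). Without a Vector-CM library it was 18 to 21 (against 7.35% to 9.24%). Without FGFBP1-CM replicates 2 and 3 it was 30 and 27 (against 12.4% and 12.0%).

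POLR1A, the largest subunit of RNA polymerase I, chosen as an example after its values were seen, had 60.9, 64.6 and 57.2 CPM in Vector-CM and 108.2, 79.5 and 74.9 CPM in FGFBP1-CM. The groups did not overlap, and the log2 fold change was 0.53 ± 0.12 with an edgeR adjusted p of 0.0573. RRS1, an assembly factor of the large subunit that works with RPF2, had 5.37, 6.96 and 6.46 CPM against 12.0, 7.98 and 7.97 CPM. It was the highest of the list at 0.59 ± 0.18 with an edgeR adjusted p of 0.0967. FBL, the methyltransferase fibrillarin, was the lowest at -0.09 ± 0.07. The start of POLR1A has no match to the tract and that of FBL has one.
POLR1A, chr2:86105867-86105896, minus strand: ttccgcgcgcaagcgcacgttgaatcgcgt

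Chaperones and importers of ribosomal proteins (12 genes) had a median of 0.07, with 3 higher and 0 lower at an unadjusted p under 0.05, from -0.08 for IPO5 to 0.44 ± 0.12 for HEATR3, which helps to bring RPL5 into the nucleus. Regulators of ribosomal protein synthesis (23 genes of the mTOR pathway and transcription factors) had a median of 0.07, with 6 higher and 1 lower. AKT1S1, an inhibitor within the mTOR complex, was highest at 0.35 ± 0.10 (edgeR adjusted p of 0.0962) and SP1, a transcription factor of GC-rich promoters, lowest at -0.22 ± 0.07 (edgeR adjusted p of 0.115). Mitochondrial ribosomal proteins (77 genes, 76 tested), the counterpart in the organelle, had a median of 0.06 with 53 above 0, 9 higher and 1 lower at an unadjusted p under 0.05. Their range was wider than that of the cytosolic set, from -0.34 ± 0.16 for MRPL38 to 0.87 ± 0.25 for MRPS17, both at low levels of 6.14 and 0.98 CPM in Vector-CM.

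Of the 4 ribosomal protein paralogs that the symbol pattern did not take in, RPL7L1, a nucleolar relative of RPL7, had 143.7, 152.8 and 146.3 CPM in Vector-CM and 226.3, 171.7 and 173.6 CPM in FGFBP1-CM. The groups did not overlap. The log2 fold change was 0.37 ± 0.09, with an adjusted p of 0.0729 by edgeR and 0.0137 by DESeq2. RPL22L1 had the lowest value of the 4, -0.29 ± 0.19, on 6.15, 8.19 and 7.74 CPM against 4.27, 6.66 and 7.18 CPM with overlapping groups.

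The lists were also divided by the tract. Among ribosomal protein genes the median log2 fold change was -0.08 for the 47 with the tract and -0.06 for the 17 without. In the initiation list it was -0.10 for the 7 factors with the tract (EIF2S3, EIF3D, EIF3F, EIF3K, EIF3M, EIF4A2 and EIF4B) and 0.06 for the 21 without, and in the elongation list -0.09 for 3 (EEF1A1, EEF1B2 and EEF2) and 0.12 for 8. In the biogenesis list, 4 of 43 genes with a start sequence had the tract (DDX21, FBL, NOB1 and NPM1), with medians of 0.04 with and 0.23 without it. Medians with and without it were 0.00 (3 genes) and 0.07 (6) for the chaperones and -0.06 (2) and 0.07 (16) for the regulators. The order was not the same in every list, since mitochondrial ribosomal proteins had 0.06 for 5 with the tract and 0.05 for 63 without, and the TOP list had -0.09 for 8 with it and -0.26 for VIM, the 1 tested gene without. Across all tested genes other than ribosomal protein genes, the 767 with the tract had a median of -0.03 with 57.6% below 0, and the 10263 without had a median of 0.02 with 46.2% below 0. These are descriptions of overlapping lists in the same 6 libraries, and no test was made of the difference.

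**Figure D5:**
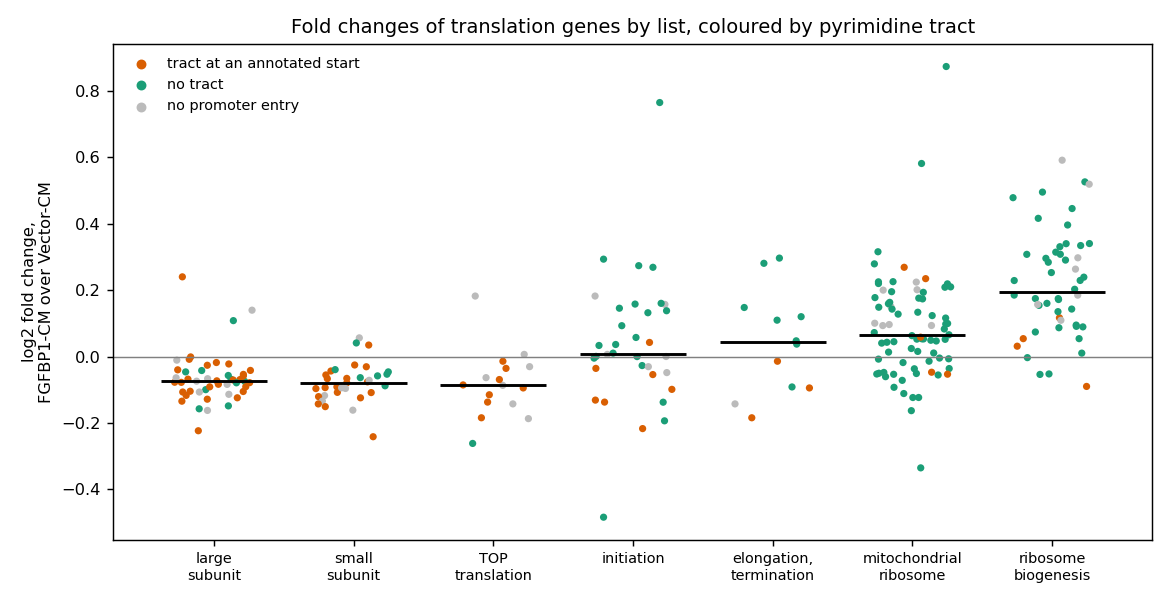
Log2 fold change (FGFBP1-CM over Vector-CM) of each tested gene of the translation lists, coloured orange where an annotated start has the pyrimidine tract, green where it has none and grey where there was no start sequence, with a bar at the median of each list. Both subunits are packed just below 0, while the biogenesis list, mostly green, is centred at 0.19.

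Across the 80 ribosomal protein genes, Spearman's rho of the log2 fold change was -0.31 with GC content, -0.13 with level and -0.11 with transcript length, where the rho with GC content over all genes tested was -0.22. The genes share libraries and their base composition, and the part of GC content was not tested. With GC content and transcript length corrected, the median was -0.07, with 67 genes below 0, where 74 were without the correction.

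Pseudogenes of the ribosomal protein genes that were high enough to test (120 of 1285) had a median log2 fold change of -0.09, and 1 of them, RPL14P1, passed the test. It had 34.1, 35.4 and 39.3 CPM in Vector-CM and 16.3, 18.3 and 23.9 CPM in FGFBP1-CM, so it fell by 0.90 ± 0.12 on the log2 scale with an edgeR adjusted p of 0.0154. Its parent RPL14 had 410.2, 438.6 and 430.3 CPM against 421.4, 424.6 and 426.0 CPM, with a log2 fold change of -0.01 ± 0.06. Reads that fit both copies could have gone to either, and whether RPL14P1 itself was transcribed was not tested.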

How the data were processed

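RNA was sequenced from 6 samples of LX-2 cells, 3 per group, and groups and replicate numbers came from the sample labels. Per the labels, the authors used Hisat2 (2.0.5) and featureCounts (1.5.0-p3), and they deposited raw counts and FPKM values per gene. The processing notes name hg18, while the rows carry Ensembl identifiers, of which 96.3% were found in GENCODE 29 (GRCh38), used here for coordinates. Whether counting used strand is not given in the sources used here, and both poly(A) selection and ribosomal RNA depletion are described. The 175 rows with identifiers of the authors' own (0.073% to 0.08% of counts) were left out.

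Counts were compared with edgeR 4.0.16 in R 4.3.3 (filterByExpr, TMM scaling, quasi-likelihood F-test) over 16582 genes, with Benjamini-Hochberg adjustment and a threshold of 0.05. SE is the size of the log2 fold change over the square root of F. CPM uses the TMM-scaled library size, except per kilobase of median transcript, where the unscaled library total was used. A count of 3, the limit of detection used, was 0.158 to 0.217 CPM, which covers counting error only. In an exact permutation test 3 against 3 libraries cannot go below 0.1, so shares and ratios were given no test. On simulated data the fit recovered 88.4% of 200 genes changed 2-fold among 16582, with 4.84% false calls. The simulation gave all genes the same dispersion and had no outlying library. It cannot give the rate of recovery for smaller changes in the real libraries.

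Named genes were the 5 tested members with the highest and lowest fold change, the 5 with the highest and lowest FPKM, paralogs with the gene each resembles, 7 with known other roles, and the extremes of each list. Of these, 2 members and 1 marker gene are not reported here, though the members stay in all counts and medians. The members, lists and tests were chosen with earlier results of these data known. Alternatives were RLE scaling, library size only, TMM without the members, 2 other filters, DESeq2 1.42.0, limma 3.58.1 on FPKM after log2 with a pseudocount of 1 or 0.1, a replicate block, correction of each library for GC and transcript length (loess, span 0.3) with and without that block, leaving out each library, and members with no counted pseudogene. Members with under 10% exon overlap and the ratio per transcript length were chosen after seeing the data. Start sequences are from RefSeq (GRCh38.p14).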

Additional observations from a re-analysis of the deposited data

How the results depend on the processing

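In 16 of 17 alternative fits 0 ribosomal protein genes passed the threshold. With at least 1 count as the only filter 1 did (RPS9, log2 fold change -0.23, edgeR adjusted p of 0.0384), in a fit that called 3.65% of 37829 genes. The median log2 fold change stayed between -0.08 and -0.04 on 6 libraries and between -0.11 and -0.04 with 1 library left out, lowest without Vector-CM replicate 1, with 66 to 74 genes below 0. The 6 genes at an unadjusted p under 0.05 became 3 with limma on log2(FPKM + 0.1), all lower. This was 3.75% of members, against 7.32% of all genes in that fit. With the GC and length correction in the replicate block the count was 10, all lower (12.5%, against 11.4% of all genes). In these fits 0 members were higher, against 11.4% and 8.79% of all genes. The count was 1 of 13 among members with no counted pseudogene, and 2 to 17 with 1 library left out. The replicate block gave 12, of which 11 were lower (13.8%, against 10.6% of all genes) and 1 was higher (against 11.0%). Over all 16582 genes the numbers showed no clear pairing of the libraries (correlations of same-numbered libraries of -0.0941, -0.0228 and 0.109). Among the 80 ribosomal protein genes, replicate 1 was most often the lowest, for 75 genes in Vector-CM and 48 in FGFBP1-CM. Replicate 3 was most often the highest, for 47 and 65 genes. Whether the numbers pair the libraries for this set was not tested. The block raised the calls over all genes from 20 to 121. The difference in the subunit ratio, 0.0118, was 0.0601 from the median FPKM of the members. The causes of these changes were not tested.

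Of 44 named genes, fold changes near 0 changed sign. RPL39 became 0.011 with library size only, 0.012 in both limma fits, 0.013 with the GC and length correction and 0.016 with that and the block. RPS27 became 0.004, 0.007 in both limma fits, 0.009 and 0.015 in the same order, and RPS27A 0.008 with library size only and 0.008 and 0.009 with limma. Leaving out 1 library gave -0.055 to 0.033 for RPL39, -0.108 to 0.041 for RPS27, -0.051 to 0.017 for RPS27A, -0.023 to 0.089 for RPS26, -0.254 to 0.051 for RPS10, -0.205 to 0.052 for RPL26 and -0.084 to 0.004 for RPS27L. Of the other values, 706 kept their direction and side of the threshold and 20 passed it in the same direction. The share of all genes that passed also differed between fits. It was 20 of 16582 in the main fit and 1382 of 37829 with at least 1 count as the only filter. Depth limits RPL3L, with 2 to 6 counts a library, and among tested members RPS10, RPL36A and RPL26, with 41 to 212.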
